A study of Arabidopsis thaliana with 27 samples.

Results

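The 9 genes described here encode the enzymes that build fatty acids in the plastid of Arabidopsis, and the acyl carrier protein that holds the growing chain. They were taken by gene code and not by a rule on measured values, but with earlier results of these data known. The genes were ACP4 (AT4G25050), malonyltransferase (MCMT, AT2G30200), the ketoacyl-ACP synthases KASIII (AT1G62640), KASI (AT5G46290) and KASII (AT1G74960), ketoacyl-ACP reductase (KAR, AT1G24360), the hydroxyacyl-ACP dehydratases AT2G22230 and AT5G10160, and enoyl-ACP reductase (ENR1, AT2G05990). Each was measured by 1 probe set, so the set made up 9 of the 22746 probe sets of the table.

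All plants were wild type of the ecotype Col-0, grown on agar at 22 °C with 16 h of light and 8 h of dark. Heat08hr and Heat24hr (3 arrays each) were plants of 18 days moved to 38 °C and harvested 8 h and 24 h later, the second group at 19 days. Recovery08hr (19 days) and Recovery24hr (20 days, 3 arrays each) were harvested 8 h and 24 h after the return to 22 °C that followed 24 h of heat. Control08hr (6 arrays, 18 and 19 days) and Control24hr (9 arrays, 18, 19 and 20 days) stayed at 22 °C. Groups marked 08hr were harvested 11 h after the onset of light and those marked 24hr 3 h after it, so each treated group was set against controls of its own clock time, and the comparisons of a clock time share their control arrays. The labels name the tissue as leaf and the methods as aerial parts, and the replicates as biological.

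Fatty acids are made in the plastid by a dissociated synthase, in which each step of the cycle is a separate soluble protein. MCMT loads malonyl groups onto the carrier protein, and KASIII, KASI and KASII join them to the chain at its start, through its elongation to palmitoyl-ACP and for its last extension to stearoyl-ACP. After each condensation KAR reduces the ketone, a dehydratase removes water and ENR1 reduces the double bond. In leaves the products supply the membrane lipids, above all those of the thylakoids.

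Expression was read on Affymetrix ATH1 arrays as a MAS5 signal, a linear intensity for each probe set. Signals of different probe sets have no common scale, so levels are compared for 1 probe set at a time. The trimmed mean was 494.5 to 496.8 on every array, but the median signal was 128.1 to 133.6 in Heat08hr and 119.8 to 130.6 in Heat24hr, against 165.8 to 175.4 in Control08hr and 162.0 to 175.9 in Control24hr. Over all probe sets the median log2 difference was -0.13 at Heat08hr and -0.22 at Heat24hr, and 0.25 and 0.19 once every array was centred on its median. Recovery08hr replicate 3 stood apart, with an SD of log2 differences of 0.62 and 0.72 from replicates 1 and 2 over the probe sets whose signal averaged 100 or more, against 0.30 to 0.58 between replicates elsewhere and 0.36 between replicates 1 and 2. It gave the highest of the 3 signals for 8 of the 9 genes. HSFA2, a heat-induced transcription factor, averaged 1182 in Heat08hr and 4930 in Heat24hr, against 19.5 in Control08hr and 14.8 in Control24hr.

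At Heat08hr most genes of the cycle were lower than in the controls and 1 was higher. The difference was largest for ENR1, the last reductase, and KASIII, the condensing enzyme that starts the chain. The dehydratase AT5G10160 moved the other way from the genes called lower, while ACP4 and KASII did not pass the test. By limma with Benjamini-Hochberg adjustment over all probe sets, 6 of the 9 genes were lower and 1 was higher, where 29.1% and 19.5% of all probe sets were lower and higher at an adjusted p under 0.05. With the study's fold limits, 2 of 9 fell below 0.5-fold and 1 rose above 1.5-fold, against 16.3% and 14.6% of all probe sets. The median log2 difference was -0.62 over the 9 genes and -0.13 over all probe sets. After median centring KASIII (-0.94) was no longer below 0.5-fold. Of all 22746 probe sets 2405 were then below 0.5-fold and 5518 above 1.5-fold.

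ENR1 gave 662, 799 and 678 in Heat08hr, against a lowest, median and highest signal of 1752, 1946 and 2009 in Control08hr. All 3 heat arrays lay below every control array (log2 difference -1.44, SE 0.09, adjusted p = 3.0e-06). KASIII gave 284, 299 and 289 in Heat08hr, against 639, 734 and 792 in Control08hr. The groups did not overlap, and the heat arrays were within a narrow range (-1.31, SE 0.09, adjusted p = 5.0e-06). KAR, which makes the reduced hydroxyacyl chain, gave 1879, 2002 and 2007 in Heat08hr, against 3278, 3724 and 4183 in Control08hr. It was 0.53-fold of the control without overlap (-0.91, SE 0.10, adjusted p = 7.4e-05).

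AT2G22230, a dehydratase, gave 849, 948 and 987 in Heat08hr, against 1494, 1712 and 1853 in Control08hr. All heat arrays were lower (-0.87, SE 0.09, adjusted p = 6.6e-05). AT5G10160, the gene for the other dehydratase, gave 2877, 2659 and 3023 in Heat08hr, against 1344, 1420 and 1566 in Control08hr. Here every heat array lay above every control array, at 1.98-fold (0.99, SE 0.09, adjusted p = 2.4e-05). KASI, which elongates the chain, gave 1872, 2180 and 2085 in Heat08hr, against 3038, 3088 and 3421 in Control08hr. It was lower without overlap (-0.62, SE 0.08, adjusted p = 2.2e-04).

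MCMT averaged 1113 ± 67.8 in Heat08hr (SD, n = 3), against 1478 ± 110.0 in Control08hr (SD, n = 6), and also fell (-0.41, SE 0.09, limma adjusted p = 0.0046). Its call was lost against controls of 18 days alone (-0.35, adjusted p = 0.0503) and after median centring (-0.04, adjusted p = 0.77). ACP4, the carrier, averaged 8760 ± 505 in Heat08hr and 9683 ± 725 in Control08hr, and the groups overlapped (-0.14, 95% interval -0.35 to 0.07, limma adjusted p = 0.24). KASII averaged 1434 ± 119 in Heat08hr and 1355 ± 148 in Control08hr, again with overlap (0.09, 95% interval -0.17 to 0.35, limma adjusted p = 0.59). After median centring KASII was called higher (0.46, adjusted p = 0.013), so that 5 genes were lower and 2 higher. Of all 22746 probe sets 4427 were then lower and 6901 higher. ACP4 was at 0.23 under that setting (limma adjusted p = 0.066).

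**Figure D1:**
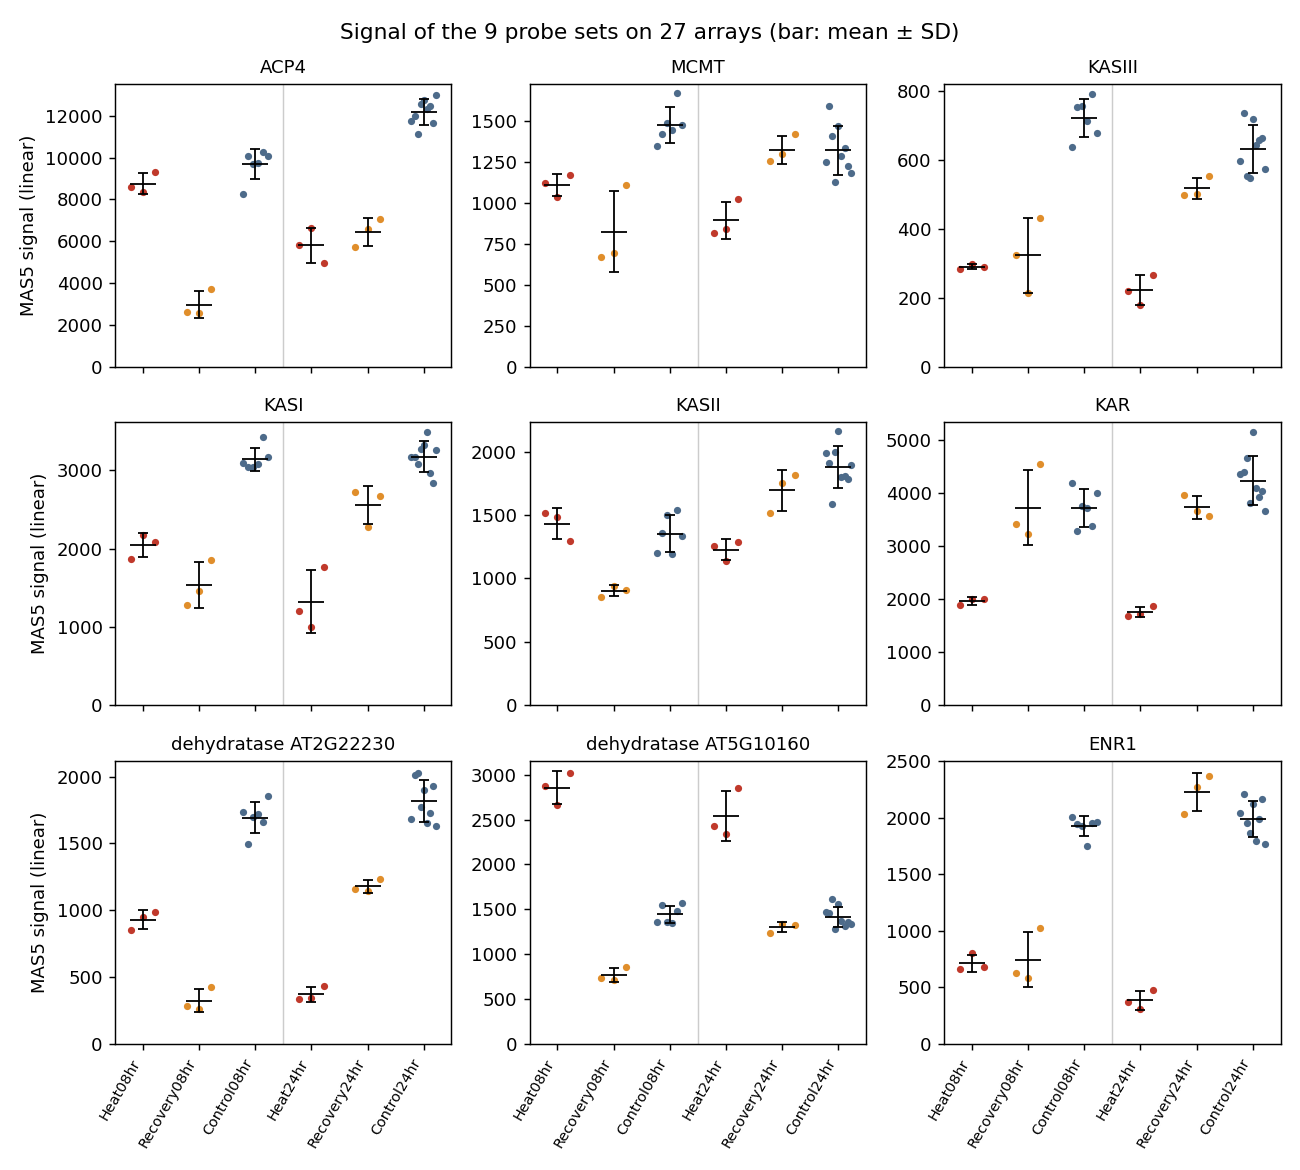
MAS5 signal (linear scale, y axis) of each gene's probe set on the 27 arrays, by group (x axis), with 1 point per array and a bar for mean ± SD (n = 3 for heat and recovery groups, 6 for Control08hr, 9 for Control24hr). The dehydratase AT5G10160 was highest in the heat groups, where the 6 heat arrays lay between 2334 and 3023, while ENR1 was lowest in Heat24hr at 309 to 477.

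At Heat24hr all 9 genes differed from the control: 8 were lower and AT5G10160 was higher. ENR1 and AT2G22230 were at 0.19-fold and 0.20-fold of Control24hr, the lowest of the set. By limma 33.4% and 24.4% of all probe sets were called lower and higher. Below 0.5-fold were 6 of the 9 genes and above 1.5-fold 1, against 22.4% and 19.9% of all probe sets. The median log2 difference was -1.26 over the 9 genes and -0.22 over all probe sets. The fold counts depended on scaling. After median centring ACP4 (-0.66), KASI (-0.89) and KAR (-0.84) were no longer below 0.5-fold. Of all 22746 probe sets 3609 were then below 0.5-fold and 6612 above 1.5-fold.

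ENR1 gave 373, 309 and 477 in Heat24hr, against 1770, 1986 and 2205 in Control24hr (lowest, median and highest). All 3 heat arrays were far below the lowest control (-2.38, SE 0.12, adjusted p = 7.4e-09). AT2G22230 gave 337, 340 and 431 in Heat24hr, against 1629, 1773 and 2028 in Control24hr. The gap between the groups was again much wider than either group (-2.30, SE 0.10, adjusted p = 2.7e-09). AT5G10160 gave 2429, 2334 and 2850 in Heat24hr, against 1281, 1370 and 1611 in Control24hr. It was 1.79-fold of the control with every heat array above every control array (0.84, SE 0.09, adjusted p = 7.8e-06).

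KASIII gave 221, 179 and 266 in Heat24hr, against 549, 643 and 738 in Control24hr (-1.52, SE 0.13, adjusted p = 6.9e-07). KASI gave 1200, 1001 and 1770 in Heat24hr, against 2834, 3172 and 3486 in Control24hr (-1.30, SE 0.14, adjusted p = 5.0e-06). Replicate 3 was the highest heat array for both, and no array overlapped with the control. KAR gave 1685, 1724 and 1860 in Heat24hr, against 3659, 4084 and 5152 in Control24hr (-1.26, SE 0.10, adjusted p = 5.1e-07). ACP4 gave 5820, 6623 and 4969 in Heat24hr, against 11132, 12347 and 13006 in Control24hr (-1.08, SE 0.09, adjusted p = 5.1e-07). The carrier was thus at 0.47-fold, with no overlap.

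MCMT and KASII had the smallest decreases. MCMT averaged 894 ± 116 in Heat24hr and 1323 ± 148 in Control24hr (-0.57, SE 0.12, limma adjusted p = 0.0011). KASII averaged 1228 ± 81.0 in Heat24hr and 1882 ± 165 in Control24hr (-0.61, SE 0.09, limma adjusted p = 1.1e-04). After median centring neither passed (MCMT -0.15, adjusted p = 0.28; KASII -0.20, adjusted p = 0.088), which left 6 genes lower and 1 higher. Of all 22746 probe sets 5466 were then lower and 7693 higher.

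The change at Heat24hr was compared with that at Heat08hr by an interaction term in a fit of all 27 arrays. It was more negative for 5 genes and more positive for none, where 17.0% and 16.6% of all probe sets were called lower and higher by limma. No gene was more positive at an unadjusted p under 0.05 either, and 6 were more negative. The share of all probe sets at that looser threshold was not counted. The difference between the changes was -1.43 for AT2G22230 (SE 0.17), -0.95 for ENR1 (SE 0.19), -0.94 for ACP4 (SE 0.15), -0.70 for KASII (SE 0.14) and -0.68 for KASI (SE 0.18). For AT5G10160 it was -0.14, with a 95% interval of -0.40 to 0.11. KAR was at -0.35 (adjusted p = 0.088), and at the same value with an adjusted p of 0.047 in the fit without Recovery08hr replicate 3. The time in heat and the clock time of harvest differ together between these groups and cannot be told apart.

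**Figure D2:**
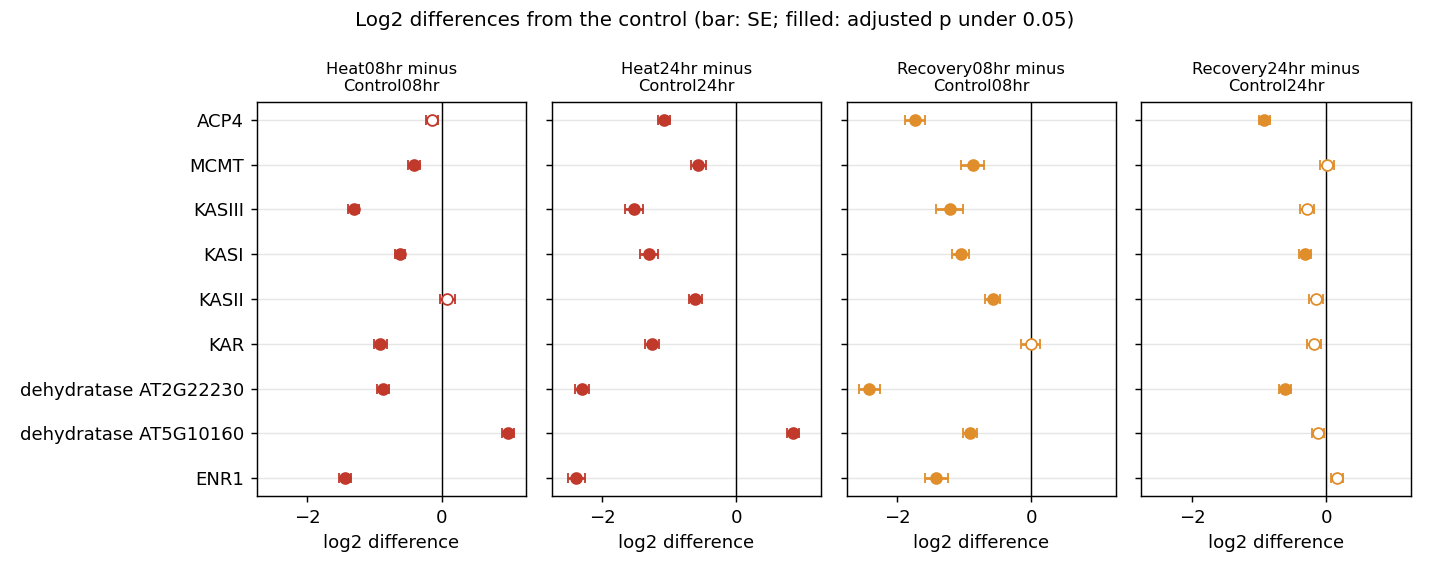
Log2 difference from the control of the same clock time (x axis) for each gene (y axis) in the 4 treated groups, with points for the limma estimate, bars for SE and filled points for an adjusted p under 0.05. At Heat24hr 8 genes lay left of 0 and AT5G10160 at 0.84, and at Recovery24hr 3 points were filled.

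At Recovery08hr, 8 of the 9 genes were lower than in Control08hr. ACP4 was at 0.30-fold and AT5G10160, which had been above the control in heat, was at 0.53-fold. KAR alone did not pass the test. By limma 26.2% of all probe sets were called lower and 26.2% higher. No gene was higher, nor was any at an unadjusted p under 0.05, a threshold at which all probe sets were not counted. Below 0.5-fold were 5 genes and above 1.5-fold 0, against 17.1% and 21.7% of all probe sets. The median log2 difference was -1.05 over the 9 genes and -0.09 over all probe sets.

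ACP4 gave 2597, 2557 and 3703 in Recovery08hr, against 8270, 9892 and 10258 in Control08hr. The highest recovery array was below the lowest control (-1.73, SE 0.14, adjusted p = 1.7e-05). AT2G22230 gave 287, 263 and 423 in Recovery08hr, against 1494, 1712 and 1853 in Control08hr. It was at 0.19-fold without overlap (-2.41, SE 0.16, adjusted p = 5.2e-06). AT5G10160 gave 737, 714 and 855 in Recovery08hr, against 1344, 1420 and 1566 in Control08hr. The dehydratase that was raised in heat was now below every control array (-0.91, SE 0.10, adjusted p = 1.1e-04).

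ENR1 gave 626, 584 and 1021 in Recovery08hr, against 1752, 1946 and 2009 in Control08hr (-1.42, SE 0.17, adjusted p = 1.6e-04). KASIII gave 323, 214 and 433 in Recovery08hr, against 639, 734 and 792 in Control08hr (-1.22, SE 0.20, adjusted p = 9.5e-04). Both genes were lower without overlap, with a wide spread among the recovery arrays. KASI gave 1283, 1462 and 1856 in Recovery08hr, against 3038, 3088 and 3421 in Control08hr (-1.05, SE 0.12, adjusted p = 1.4e-04). KAR gave 3406, 3218 and 4534 in Recovery08hr, against 3278, 3724 and 4183 in Control08hr. Its recovery arrays straddled the controls (-0.01, 95% interval -0.33 to 0.31, adjusted p = 0.97). MCMT (-0.88, SE 0.17) and KASII (-0.58, SE 0.12) were lower as well.

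Without Recovery08hr replicate 3 the count was again 8 lower and 0 higher, and the median log2 difference of the 9 genes was -1.20. The differences were then -1.91 for ACP4, -2.62 for AT2G22230, -1.67 for ENR1 and -0.16 for KAR (limma adjusted p = 0.30).

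Recovery08hr was also set against Heat08hr, harvested at the same clock time. ACP4, KASII, AT2G22230 and AT5G10160 were lower after 8 h of recovery than after 8 h of heat, and KAR was higher. These were 4 genes lower and 1 higher by limma, against 16.8% and 22.5% of all probe sets. The log2 difference was -1.59 for ACP4 (SE 0.20, adjusted p = 0.0029), -1.55 for AT2G22230 (SE 0.23, adjusted p = 0.0046) and -1.89 for AT5G10160 (SE 0.15, adjusted p = 9.6e-04). KAR was 1.87-fold of Heat08hr (0.91, SE 0.18, adjusted p = 0.013), a call lost without Heat08hr replicate 1 (0.88, adjusted p = 0.052). KASII passed with all arrays (-0.66, SE 0.15, adjusted p = 0.017) and not without any of Heat08hr replicate 1, Heat08hr replicate 2 or Recovery08hr replicate 1 (adjusted p = 0.064 to 0.068). MCMT and KASI, not called here, were lower under 3 other settings, each with 6 genes lower and 1 higher. These were the fit of all 27 arrays (MCMT -0.47, adjusted p = 0.013; KASI -0.43, adjusted p = 0.020), median centring (MCMT -0.82, adjusted p = 0.031; KASI -0.78, adjusted p = 0.022) and the fit without Recovery08hr replicate 3 (MCMT -0.70, adjusted p = 0.016; KASI -0.58, adjusted p = 0.038). After median centring 5688 of all 22746 probe sets were lower and 3432 higher.

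The Recovery08hr change was next compared with the Heat24hr change, the state from which the plants were returned, each against its own control. In this contrast AT5G10160 went from above its control at Heat24hr to below it at Recovery08hr (-1.75, SE 0.12, adjusted p = 3.9e-11). ACP4, below its control at both times, was further down in recovery (-0.65, SE 0.15, adjusted p = 8.8e-04). KAR was back near its control in recovery (1.25, SE 0.15, adjusted p = 3.1e-07), and ENR1 was less far down (0.97, SE 0.19, adjusted p = 2.0e-04). These 2 lower and 2 higher genes compare with 19.2% and 25.5% of all probe sets by limma. For AT2G22230 the difference was -0.11, with a 95% interval of -0.46 to 0.23, but the gene was called lower after quantile normalization (-0.39, adjusted p = 0.034) and median centring (-0.51, adjusted p = 0.0094). MCMT was also called lower after both (-0.50, adjusted p = 0.034; -0.70, adjusted p = 0.0012) and KASII after median centring (-0.36, adjusted p = 0.045). After median centring 5 genes were thus lower and after quantile normalization 4, each with 2 higher. Shares of all probe sets under those settings are not given here. Leaving out 1 array added a call for MCMT (-0.54 without Recovery08hr replicate 3), KASIII (0.58 without Recovery08hr replicate 2) and KASI (0.48 without Heat24hr replicate 3). Here too the clock time of harvest differs along with the treatment, and their parts cannot be told apart.

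At Recovery24hr ACP4, AT2G22230 and KASI were lower than in Control24hr, and the other 6 genes did not pass the test. By limma 3 genes were lower and 0 higher, against 18.4% and 18.1% of all probe sets. At an unadjusted p under 0.05 the counts were 4 and 0, but all probe sets were not counted at that threshold. None was below 0.5-fold or above 1.5-fold, against 7.36% and 11.8% of all probe sets. The median log2 difference was -0.18 over the 9 genes and -0.07 over all probe sets.

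ACP4 gave 5739, 6571 and 7039 in Recovery24hr, against 11132, 12347 and 13006 in Control24hr. The carrier was still at 0.53-fold after 24 h at 22 °C, below every control array (-0.92, SE 0.08, adjusted p = 9.3e-06). AT2G22230 gave 1161, 1145 and 1237 in Recovery24hr, against 1629, 1773 and 2028 in Control24hr. It was at 0.65-fold without overlap (-0.62, SE 0.09, adjusted p = 3.1e-04). KASI gave 2723, 2272 and 2674 in Recovery24hr, against 2834, 3172 and 3486 in Control24hr. Its smaller difference passed the test (-0.31, SE 0.09, adjusted p = 0.014), but not against the controls of 20 days alone (-0.24, adjusted p = 0.28) or without Recovery24hr replicate 2 (-0.23, adjusted p = 0.096).

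ENR1 gave 2036, 2274 and 2367 in Recovery24hr, against 1770, 1986 and 2205 in Control24hr. The groups overlapped, with 2 recovery arrays above all controls (0.16, 95% interval -0.04 to 0.36, adjusted p = 0.19). AT5G10160 gave 1233, 1335 and 1322 in Recovery24hr, against 1281, 1370 and 1611 in Control24hr (-0.12, 95% interval -0.32 to 0.07, adjusted p = 0.31). KASIII gave 499, 501 and 554 in Recovery24hr, against 549, 643 and 738 in Control24hr (-0.28, 95% interval -0.52 to -0.05, adjusted p = 0.060). KASIII was the nearest to the threshold, and passed it after quantile normalization (-0.41, adjusted p = 0.013) and median centring (-0.35, adjusted p = 0.032), on probe sets of a mean signal of 100 or more (adjusted p = 0.031), and without Control24hr 19 days replicate 1 (-0.31, adjusted p = 0.044) or Control24hr 18 days replicate 3 (-0.31, adjusted p = 0.047). The 95% intervals were -0.23 to 0.25 for MCMT, -0.37 to 0.07 for KASII and -0.41 to 0.06 for KAR.

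Relative to Heat24hr, 6 genes were higher at Recovery24hr and 1 was lower, against 24.4% and 17.9% of all probe sets by limma. ENR1 was 5.84-fold of Heat24hr (log2 difference 2.55, SE 0.20, adjusted p = 7.7e-04) and AT2G22230 3.21-fold (1.68, SE 0.16, adjusted p = 0.0011). KASIII (1.24, SE 0.19, adjusted p = 0.0046) and KAR (1.08, SE 0.13, adjusted p = 0.0023) rose as well. AT5G10160 fell to 0.51-fold (-0.96, SE 0.15, adjusted p = 0.0044). ACP4 was at 0.16, with a 95% interval of -0.28 to 0.59, and KASII at 0.46 (adjusted p = 0.052). KASII was called higher in the fit of all 27 arrays (adjusted p = 0.0017), with 16 added to the signal (adjusted p = 0.037), on probe sets of a mean signal of 100 or more (adjusted p = 0.018) and without Recovery24hr replicate 1 (adjusted p = 0.046). KASI (0.99, adjusted p = 0.025) and MCMT (0.58, adjusted p = 0.032) lost their calls without any 1 of 5 of the 6 arrays and after median centring, where 4 genes were higher. The 5 arrays are Heat24hr replicates 1 and 2 and all of Recovery24hr. After median centring 3615 of all 22746 probe sets were higher and 6825 lower.

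The Recovery24hr change was more positive than the Recovery08hr change for 8 genes and more negative for none, against 19.5% and 19.4% of all probe sets by limma. At an unadjusted p under 0.05 none was more negative either, and all probe sets were not counted at that threshold. The difference between the changes was 1.80 for AT2G22230 (SE 0.17), 1.58 for ENR1 (SE 0.19), 0.93 for KASIII (SE 0.21), 0.88 for MCMT (SE 0.18), 0.81 for ACP4 (SE 0.15), 0.79 for AT5G10160 (SE 0.12), 0.74 for KASI (SE 0.18) and 0.43 for KASII (SE 0.14). For KAR, near its control at both times, it was -0.17, with a 95% interval of -0.49 to 0.15. Without Recovery08hr replicate 3 the count was 8 and 0. The time in recovery and the clock time of harvest differ together between these groups and cannot be told apart.

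Among control plants 2 of the 9 genes differed between Control24hr and Control08hr by limma, both higher in Control24hr, where 33.4% of all probe sets differed in either direction. ACP4 had a lowest, median and highest signal of 11132, 12347 and 13006 in Control24hr, against 8270, 9892 and 10258 in Control08hr (0.33, SE 0.06, adjusted p = 2.8e-04). KASII had 1585, 1893 and 2167 in Control24hr, against 1192, 1347 and 1542 in Control08hr (0.48, SE 0.08, adjusted p = 1.9e-04). Neither gene overlapped between the clock times. Between control plants of different ages at a clock time, the 36 log2 differences had sizes of 0.003 to 0.21, with a median of 0.08.

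Ordered by level, ENR1 was lowest in Heat24hr, followed by Heat08hr, Recovery08hr, Control08hr, Control24hr and Recovery24hr. Of these neighbours only Heat24hr and Heat08hr, and Recovery08hr and Control08hr, had arrays that did not overlap. AT5G10160 ran from Recovery08hr through Recovery24hr, Control24hr, Control08hr and Heat24hr to Heat08hr. Its arrays did not overlap between Recovery08hr and Recovery24hr, nor between Control08hr and Heat24hr. ACP4 ran from Recovery08hr through Heat24hr, Recovery24hr, Heat08hr and Control08hr to Control24hr, with overlap between Heat24hr and Recovery24hr and between Heat08hr and Control08hr. For KAR, Heat24hr and Heat08hr lay below the other 4 groups, which overlapped from neighbour to neighbour.

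The dehydratases carry out the same step, and their ratio was taken within each array, where a common scaling factor cancels. The log2 ratio of the AT2G22230 signal to the AT5G10160 signal has no meaning as an absolute balance, because the probe sets differ, but its change between groups can be read. The ratio averaged -1.62 ± 0.14 in Heat08hr (SD, n = 3), against 0.23 ± 0.15 in Control08hr (SD, n = 6). At Heat24hr it was -2.78 ± 0.06, against 0.36 ± 0.11 in Control24hr (SD, n = 9). At Recovery08hr it was -1.27 ± 0.23, and at Recovery24hr -0.14 ± 0.08. All 12 treated arrays lay below every control array of their clock time.

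The differences in log2 ratio were -1.85 at Heat08hr, -3.14 at Heat24hr, -1.50 at Recovery08hr and -0.49 at Recovery24hr. By the two-sided exact permutation test, p was 0.024 at both 08hr times and 0.0091 at both 24hr times, which are the smallest values that 3 against 6 and 3 against 9 arrays allow. Adjusted over 16 tests of 4 ratios, these exact permutation values were 0.038 and 0.036. At Heat08hr and Heat24hr they add nothing to the results of the single genes. There AT2G22230 lay below and AT5G10160 above every control array, so the ratio had to separate fully. Without Recovery08hr replicate 3 the difference was -1.63 and p = 0.071, the smallest that 2 against 6 arrays allow in an exact permutation test.

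**Figure D3:**
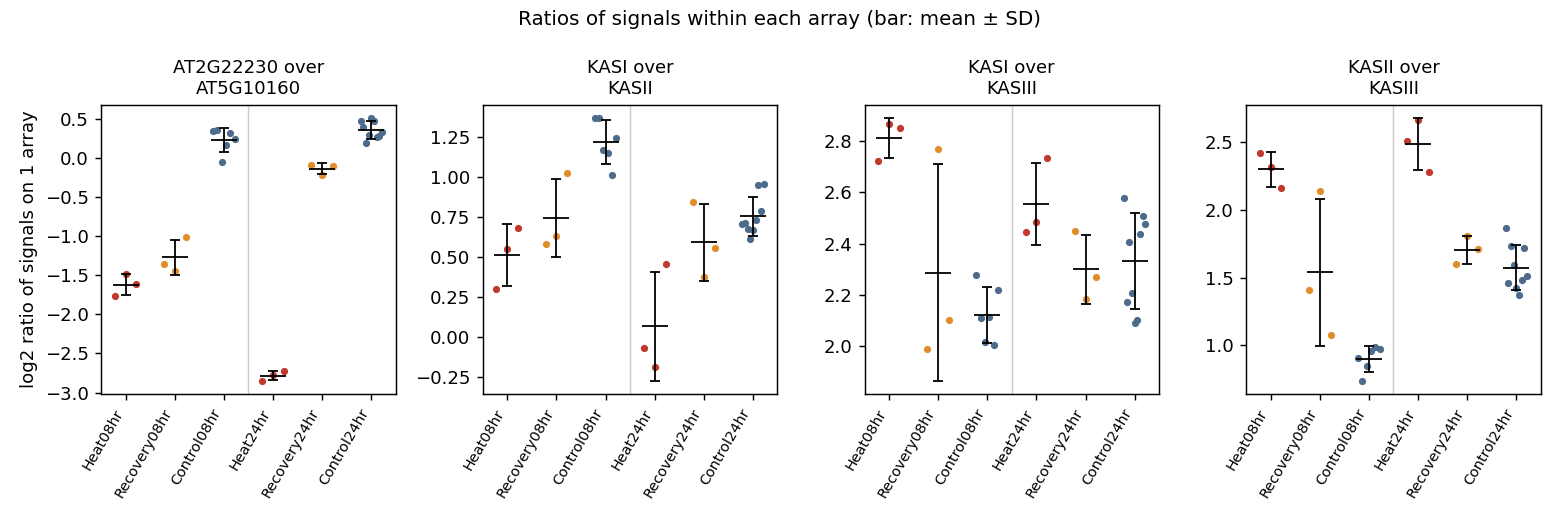
Log2 ratio of 2 signals on the same array (y axis) by group (x axis) for the dehydratase pair and the 3 pairs of ketoacyl-ACP synthases, with 1 point per array and a bar for mean ± SD (n = 3 for heat and recovery groups, 6 for Control08hr, 9 for Control24hr). The dehydratase ratio lay between -2.85 and -2.73 in Heat24hr, against 0.20 to 0.51 in Control24hr.

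The 3 condensing enzymes did not move alike. KASII over KASIII was higher than in controls by 1.40 on the log2 scale at Heat08hr and by 0.91 at Heat24hr, with adjusted exact permutation p = 0.038 and 0.036. KASI over KASII was lower at both heat times (-0.71 and -0.69, adjusted exact permutation p = 0.038 and 0.036). KASI over KASIII was higher at Heat08hr (0.69, adjusted exact permutation p = 0.038), and at Heat24hr the difference was 0.22 (adjusted exact permutation p = 0.15). At Recovery08hr KASII over KASIII was higher (0.64, adjusted exact permutation p = 0.038), by 0.87 without replicate 3 and by 0.34 without replicate 2. KASI over KASII was -0.47 at that time (adjusted exact permutation p = 0.069). At Recovery24hr the 3 differences were -0.16, -0.03 and 0.13 for KASI over KASII, KASI over KASIII and KASII over KASIII, with adjusted exact permutation p = 0.22, 0.85 and 0.26. The first was -0.29 without Recovery24hr replicate 1 (unadjusted exact permutation p = 0.036).

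As a description of likeness, Pearson's r between log2 signals was taken over the 27 arrays, which share the 6 groups, so r mostly reflects differences between groups. Of the 36 pairs of genes 32 had an r above 0, with a median of 0.69. The most alike were KASI and AT2G22230 (r = 0.95) and KASIII and ENR1 (r = 0.94). Each gene was also compared with 7922 other probe sets, described below. The 5% most like a gene held 0 other members for KAR and AT5G10160, and 1 for ACP4 and AT2G22230. They held 2 for KASIII, KASII and ENR1, and 3 for MCMT and KASI. The median r with the other members was -0.06 (AT5G10160) to 0.88 (AT2G22230). With all compared probe sets it was -0.09 (AT5G10160) to 0.14 (KAR). AT5G10160 had an r of -0.72 with KAR, -0.38 with ENR1 and 0.02 with AT2G22230. Over the deviations of arrays from their group means the median r was 0.47, and AT5G10160 then had an r of 0.58 with AT2G22230 and 0.57 with ENR1. Without Recovery08hr replicate 3 the median r of those deviations was 0.34 (n = 26 arrays), with 27 of 36 pairs above 0.

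**Figure D4:**
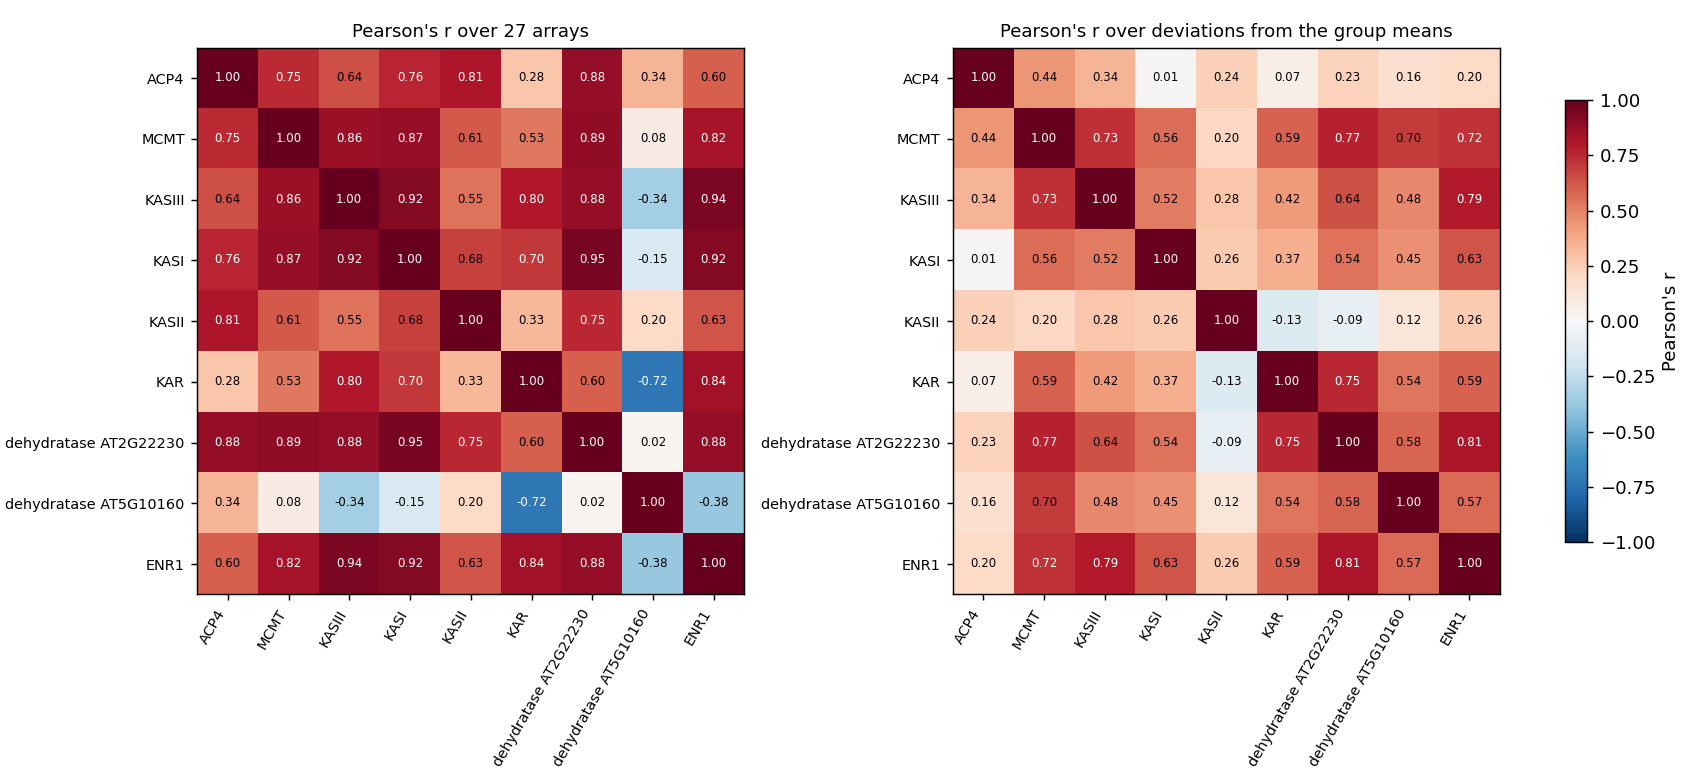
Pearson's r (colour and number) between the log2 signals of each pair of the 9 genes (both axes), over the 27 arrays at left and over the deviations of the 27 arrays from their group means at right. AT5G10160 was the gene with r below 0 to others at left, down to -0.72 with KAR, and its r with KAR was 0.54 at right.

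Among 7922 other probe sets of 1 named gene whose signal averaged 100 or more, those most like ENR1 over the 27 arrays were AT4G10060 (r = 0.98), EXP3, an expansin (r = 0.98), and AT1G23205 (r = 0.98). For KASI they were AT1G47740 (r = 0.97), AT1G74730 (r = 0.97) and AT4G13100 (r = 0.96). For AT5G10160 they were AT3G08740 (r = 0.96), AT5G22340 (r = 0.95) and WLIM2b (r = 0.95).

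Genes that feed the cycle were counted in the same fits, and the shares of all probe sets called lower and higher are repeated beside the counts. Pyruvate dehydrogenase, which makes acetyl-CoA in the plastid, had 6 of 7 probe sets lower and 1 higher at Heat24hr, and acetyl-CoA carboxylase with its regulator PII, the source of malonyl-CoA, had 5 of 6 lower and 1 higher, against 33.4% and 24.4% of all probe sets. At Heat08hr the counts were 5 lower and 1 higher of 7, and 3 lower and 1 higher of 6, against 29.1% and 19.5%. At Recovery08hr they were 6 lower and 1 higher of 7, and 6 lower and 0 higher of 6, against 26.2% and 26.2%. At Recovery24hr they were 3 lower and 1 higher of 7, and 3 lower and 0 higher of 6, against 18.4% and 18.1%. Whether these counts differ from those shares was not tested. Isoforms differed in direction here too. The E1 beta subunit gene AT1G30120 was at -2.35 (SE 0.08) and the E1 beta subunit gene AT2G34590 at 1.82 (SE 0.08) at Heat24hr. Of the carboxylase, the biotin carrier BCCP2 was lowest (-2.76, SE 0.13) and the carboxyltransferase subunit CAC3 highest (0.45, SE 0.09).

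Among the other acyl carrier proteins, at Heat24hr ACP1 was at -2.53 (SE 0.11, limma adjusted p = 1.6e-09), while the probe set shared by ACP2 and ACP3 was at -0.03 (SE 0.08, limma adjusted p = 0.79). At Recovery24hr, where ACP4 was at -0.92, ACP1 was at 0.50 (SE 0.14, limma adjusted p = 0.013) and the ACP2 and ACP3 probe set at 0.09 (SE 0.08, limma adjusted p = 0.45). Whether these genes differ from ACP4 in their change was not tested. Of 3 probe sets for other ketoacyl-ACP reductases, 2 were lower at Heat24hr, where 33.4% of all probe sets were. They were at -1.25 for AT3G55290 and AT3G55310, which share a probe set, and -0.35 for AT1G62610 and AT1G63380, which share another. The remaining probe set, for AT3G46170, had a mean signal of 1.80 over all arrays, too dim to read a difference.

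Enzymes that act on the finished chain or prepare the carrier were counted at Heat24hr, where 33.4% of all probe sets were lower and 24.4% higher by limma. Their lists hold 3 to 6 probe sets each, and whether their counts differ from those shares was not tested. Of 6 stearoyl-ACP desaturase probe sets 2 were lower and 1 higher, with DES5 highest (1.19, SE 0.12). The lowest was DES3, a dim probe set that averaged 3.96 in Heat24hr and 61.6 in Control24hr, so that the size of its log2 difference (-4.15, SE 0.30) rests on signals near the bottom of the scale. Of 3 acyl-ACP thioesterases, which release the chain, 2 were lower and 1 higher, with AT4G13050 at -1.45 (SE 0.14) and FATA1 at 2.18 (SE 0.17). Of 3 enzymes for holo-ACP and lipoate, 2 were lower and 1 higher, with LIP1P at -1.70 (SE 0.12) and AT4G31050 at 2.63 (SE 0.20). In the mitochondrial synthase 3 of 4 measured genes were lower and 1 higher, with mtHD, whose mean signal over all arrays was 63.4, at -1.23 (SE 0.46) and the mitochondrial enoyl reductase MECR at 1.23 (SE 0.07).

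WRI1, a transcription factor known to activate genes of plastid fatty acid synthesis in seeds, was read by 2 dim probe sets with mean signals of 81.8 and 131 over all arrays. They were at 0.63 (SE 0.22, limma adjusted p = 0.046) and 0.55 (SE 0.18, limma adjusted p = 0.035) at Heat08hr. At Heat24hr they were at 0.50 (SE 0.37, limma adjusted p = 0.28) and 0.37 (SE 0.14, limma adjusted p = 0.044), and at Recovery08hr at 0.38 (SE 0.24, limma adjusted p = 0.23) and 1.51 (SE 0.17, limma adjusted p = 1.2e-04). The probe sets thus differed in their calls. Of 10 probe sets of regulators, WRI1 included, 1 was lower and 2 were higher at Heat24hr, where 33.4% and 24.4% of all probe sets were. They ran from -1.99 (SE 0.91, limma adjusted p = 0.081) for LEC2, whose mean signal over all arrays was 20.7, to 1.09 (SE 0.11) for ASIL1.

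Cell type markers were few here. Of the lists for mesophyll, epidermis, guard cells, roots and seeds, 1 gene each had a named probe set, of 6, 4, 3, 4 and 3 genes, and none of 2 each for phloem, meristem and flower. The mesophyll gene RCA averaged 18503 in Heat24hr, 34134 in Control24hr, 15088 in Recovery08hr and 27182 in Control08hr. In Recovery24hr RCA averaged 18488. In Heat08hr RCA averaged 27878, against 27182 in Control08hr. The epidermal gene FDH averaged 315 in Heat24hr and 1751 in Recovery24hr, against 1941 in Control24hr. The guard cell gene FAMA averaged 292 in Heat24hr and 151 in Recovery24hr, against 217 in Control24hr. In Heat08hr FDH averaged 1187.5 and FAMA 139, against 1738 and 243 in Control08hr. The root gene EXP7 and the seed gene OLEO1 were at 2.0 to 76.9 and 5.1 to 67.0 over all arrays. The part of these shifts in the differences of the 9 genes was not tested, and in whole leaves fewer cells of a type and less RNA per cell cannot be told apart.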

How the data were processed

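Each array was hybridised with RNA of 1 biological replicate, and the deposited intensity values were used as given. The authors obtained them by MAS5; the methods also name a baseline to the median in GeneSpring, which these linear values do not show, and how the common trimmed mean arose is not given in the sources used here. Samples were grouped by their labels, harvest times came from the methods. Log2 of the signal was tested in R 4.3.3 with limma 3.58.1 (lmFit, eBayes) on the groups of a comparison alone, with Benjamini-Hochberg adjustment over 22746 probe sets. Interactions used all 27 arrays. The test was checked on simulated data. Ratios were tested by exact permutation in scipy 1.17.1; tables and plots used Python 3.11.15, pandas 2.3.3, numpy 2.4.6 and matplotlib. Probe sets were named from the study's gene list (228), the platform annotation (13461) and a further study table (712).

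All 9 members were named. Of each list the lowest and highest probe set at Heat24hr were named, with WRI1, and for ENR1, KASI and AT5G10160 the 3 most alike probe sets. Members and lists were chosen with earlier results of these data known. Results were recomputed with age-matched controls, with a fit of all arrays, with a replicate block, after quantile normalization or median centring, with 16 added to the signal, with a minimum mean signal of 100 and without each array. For the interactions these alternatives were chosen after seeing the data. Cross-hybridisation was not tested. Sequences and lipid values were not analysed here. The number of arrays limits the precision.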

Additional observations from a re-analysis of the deposited data

Results flagged for a closer look

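Some control arrays stood apart from the others of their group for 1 gene. In Control08hr this was an ACP4 signal of 8270, a KASI signal of 3421 and an ENR1 signal of 1752, from 3 different arrays. Of 18 sets of control arrays examined in this way, chance alone gives about 1 in 20.

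The change from the control differed between Heat24hr and Heat08hr for 5 genes by limma's interaction test. The difference of the log2 changes was -0.94 for ACP4, -0.68 for KASI, -0.70 for KASII, -1.43 for AT2G22230 and -0.95 for ENR1. The change differed between Recovery24hr and Recovery08hr for 8 genes by the same test. The difference was 0.81 for ACP4, 0.88 for MCMT, 0.93 for KASIII, 0.74 for KASI, 0.43 for KASII, 1.80 for AT2G22230, 0.79 for AT5G10160 and 1.58 for ENR1. KASII was not called there after median centring (0.34, adjusted p = 0.064), nor without Recovery08hr replicate 1 or Recovery24hr replicate 3 (adjusted p = 0.051 and 0.055). In both comparisons the clock time of harvest also differs between the groups.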

How the results depend on the processing

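Of 630 alternative values for single genes against the controls, 12 changed the call and 0 of the called ones changed direction. After median centring 2 genes instead of 1 were higher at Heat08hr, and 5 instead of 2 had a more negative change at Recovery08hr than at Heat24hr; quantile normalization gave 4. Median centring also moved the share of higher among all called probe sets to 60.9% at Heat08hr, 58.5% at Heat24hr, 37.6% for Recovery08hr against Heat08hr and 34.6% for Recovery24hr against Heat24hr, where the deposited values gave 40.1%, 42.2%, 57.2% and 57.7%. Restricting the test to a mean signal of at least 100 called 1 gene, KASIII, lower in Control24hr than in Control08hr instead of 0. Leaving out single arrays gave 0 to 2 lower there, from Control08hr 18 days replicate 1 (1 lower) and Control24hr replicate 2 of 18 (2 lower) and 19 days (1 lower), and 0 to 1 higher for Recovery08hr against Heat08hr. The cause was not tested. The dehydratase ratio kept its sign without each array, at -1.92 to -1.78 at Heat08hr and -1.63 to -1.42 at Recovery08hr. At these times, for the other ratios too, 2 against 6 arrays cannot give an exact permutation p under 0.071.

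The arrays were not taken as paired by replicate number, because the labels do not say that arrays of a number belong together. Between deviations from the group means, r was -0.14 to 0.23 (median 0.02) for 96 pairs of the same number. It was -0.34 to 0.28 (median -0.01) for 192 pairs of different numbers. That 18 of 27 arrays were most like their own number is a hint of pairing from the data, not from the design. A fit with the replicate block called 1 gene (KASIII, adjusted p = 0.027) lower in Control24hr than in Control08hr instead of 0. It called 3 instead of 4 lower for Recovery08hr against Heat08hr, without KASII (adjusted p = 0.069), and 5 instead of 6 higher for Recovery24hr against Heat24hr, without MCMT (adjusted p = 0.072). It changed no other call of a member.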
